A study of Mus musculus with 15 samples.

Results

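Small leucine-rich proteoglycans are secreted matrix proteins with a core of leucine-rich repeats, most of which also carry sulfated sugar chains. The 8 described here, decorin (Dcn), biglycan (Bgn), lumican (Lum), fibromodulin (Fmod), PRELP (Prelp), podocan (Podn), osteoglycin (Ogn) and asporin (Aspn), were taken by gene symbol from a list, and all 8 were found among the 56059 genes of the count table and were among the 18651 genes tested. As background, these proteins lie on the surface of collagen fibrils, where they set fibril spacing and thickness, and several of them also bind growth factors or receptors of innate immunity. In skin they are made mainly by fibroblasts, and mice that lack decorin or lumican have fragile skin with irregular fibrils.

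RNA was measured in whole skin from mice of 4 groups, in 15 libraries. Mice of the combination group (n = 4) had an allogeneic bone marrow transplant and then both belumosudil (150 mg/kg) and Wnt-C59 (5 mg/kg). Mice of the Wnt-C59 group (n = 4) had an allogeneic transplant and Wnt-C59 alone at that dose, and mice of the allogeneic vehicle group (n = 3) an allogeneic transplant and 0.4% methylcellulose. Mice titled syngeneic (n = 4) also received 0.4% methylcellulose; their treatment label names an allogeneic transplant as well, so the title decides the group. Dosing was oral and daily, with day 21 the first and day 49 the last day after transplantation. The allogeneic transplant serves as a mouse model of sclerodermatous graft-versus-host disease, where donor immune cells attack the host and the skin hardens. Wnt-C59 blocks porcupine, which adds a lipid to Wnt proteins so that they can be secreted, and belumosudil is an inhibitor of ROCK2, a kinase that acts on the cytoskeleton. Strain, sex and age are not given in the sources used here, nor is it said whether each library is a separate mouse, so p-values measure the spread between these libraries. No group of mice without a transplant is among these samples.

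The code of the 4 combination columns, RW, is not explained by any label. They were taken as the combination because no other group of these samples was left, but the title of the study also names ruxolitinib and ibrutinib as partners of porcupine inhibition. Whether the second drug in these columns was belumosudil or another, such as ruxolitinib, could not be settled from the columns, and every value of the combination carries this limit. Treated libraries are named by their column numbers (2, 3, 4 and 5 for the combination, 1, 2, 4 and 5 for Wnt-C59). Library totals were 18992866 to 28779816 estimated counts in treated skin and 16258690 to 20390744 in vehicle skin. Treated and vehicle libraries also differed as sets: non-whole values made up 44.76 to 60.62% of the nonzero genes in treated libraries and 31.07 to 34.39% in vehicle libraries, and the nuclear RNA Malat1 stood at 65.0 to 135.7 CPM (counts scaled to a TMM-adjusted library of 1000000) in treated libraries and at 1070.9 to 3500.5 CPM in vehicle libraries. Fold changes of treated against allogeneic skin followed transcript GC content over 18227 genes, with a Spearman rho of 0.541 for the combination and 0.504 for Wnt-C59, while it was -0.1 for allogeneic against syngeneic skin. Treatment and any technical batch with the same split cannot be told apart, and the fold changes of the 8 genes in treated against allogeneic skin are therefore also given with the GC trend of every library removed.

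In summed level the 8 genes were lowest in allogeneic vehicle skin. On the scale of CPM per kilobase of the longest transcript, they summed to 500.3 ± 95.5 in combination skin, 523.9 ± 213.3 in Wnt-C59 skin (SD, n = 4 each), 231.2 ± 35.7 in allogeneic skin (SD, n = 3) and 375.0 ± 77.6 in syngeneic skin (SD, n = 4). Each treated library summed higher (345.1 to 818.6) than each allogeneic library (200.4 to 270.3), and syngeneic libraries (261.7 to 437.8) overlapped both. In whole skin, fewer cells of a type and less RNA per cell cannot be told apart.

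**Figure D1:**
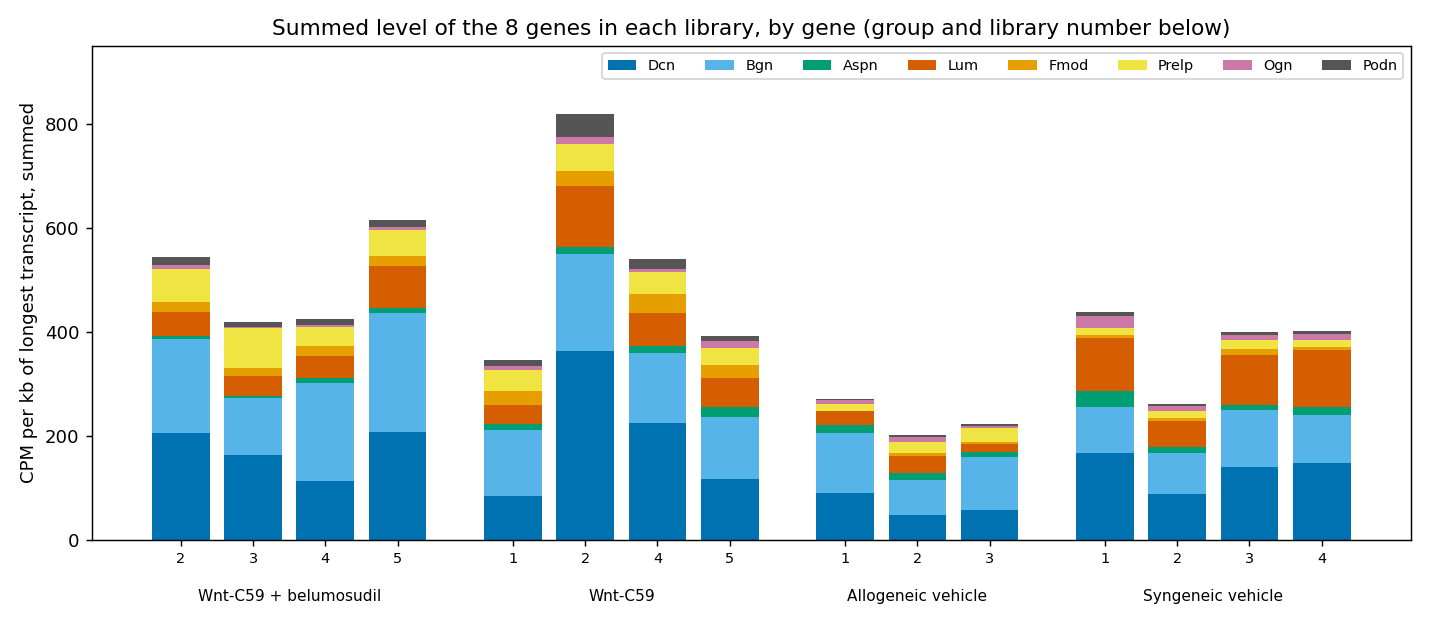
Summed level of the 8 genes in each library, in CPM per kilobase of the longest transcript (vertical axis), split by gene, with the libraries of the 4 groups side by side. Allogeneic libraries have the shortest bars (200.4 to 270.3) apart from an overlap with syngeneic library 2 (261.7), and Wnt-C59 library 2 has the tallest (818.6).

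Decorin and biglycan made up most of the pool in each group, and lumican had its highest share in syngeneic skin. Biglycan and decorin had 35.2% and 34.3% of the summed level in combination skin, 28.9% and 34.8% in Wnt-C59 skin, 40.6% and 27.6% in allogeneic skin and 25.1% and 35.9% in syngeneic skin. Lumican held 10.1% in combination, 12.7% in Wnt-C59 and 10.5% in allogeneic skin, against 23.3% in syngeneic skin, where its lowest library (19.0%) lay above the highest library of any other group (15.8%). Prelp held 11.7%, 8.49%, 8.98% and 3.97% in the same order of groups. Aspn and Ogn, at the other end, held 1.56% and 0.981% in combination skin, against 5.89% and 3.34% in allogeneic skin. The GC trend was not removed from these shares or from the orders that follow, and Aspn and Ogn had the GC-poorest transcripts (34.3% and 36.3%). With that trend removed, their log2 fold changes with the combination against allogeneic skin were 0.91 and 0.95. Shares of treated and vehicle skin are therefore not shown to differ in composition. The order of genes was Bgn, Dcn, Prelp, Lum, Fmod, Podn, Aspn, Ogn in combination skin and Dcn, Bgn, Lum, Prelp, Fmod, Podn, Aspn, Ogn in Wnt-C59 skin. In allogeneic skin it was Bgn, Dcn, Lum, Prelp, Aspn, Ogn, Fmod, Podn and in syngeneic skin Dcn, Bgn, Lum, Aspn, Prelp, Ogn, Fmod, Podn. Most neighbours in these orders overlapped between libraries. The exceptions were Dcn above Prelp and Lum above Fmod in combination skin, Bgn above Lum in Wnt-C59 skin, Dcn above Lum in allogeneic skin and Lum above Aspn in syngeneic skin, each pair with no overlap.

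In allogeneic against syngeneic vehicle skin, which asks what the graft-versus-host model does to these genes, 1 of the 8 passed the test, Lum, which fell. Among all 18651 tested genes 29.8% were called, 14.6% as a rise and 15.1% as a fall. Bgn and Prelp had positive and the other genes negative fold changes, and the median of the 8 log2 fold changes was -0.87, against -0.07 over all tested genes. With Wnt-C59 against allogeneic vehicle skin 5 of the 8 rose (Dcn, Lum, Fmod, Prelp and Podn) and none fell, where 50.8% of all tested genes were called, 24.6% as a rise and 26.2% as a fall; the median was 1.29, against 0.00 over all genes. With the combination against allogeneic skin 6 of the 8 rose (the same 5 and Bgn) and none fell, where 54.5% of all genes were called, 27.1% as a rise and 27.4% as a fall; the median was 1.26, against 0.01. These treated comparisons share the 3 allogeneic libraries, so they are not independent.

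**Figure D2:**
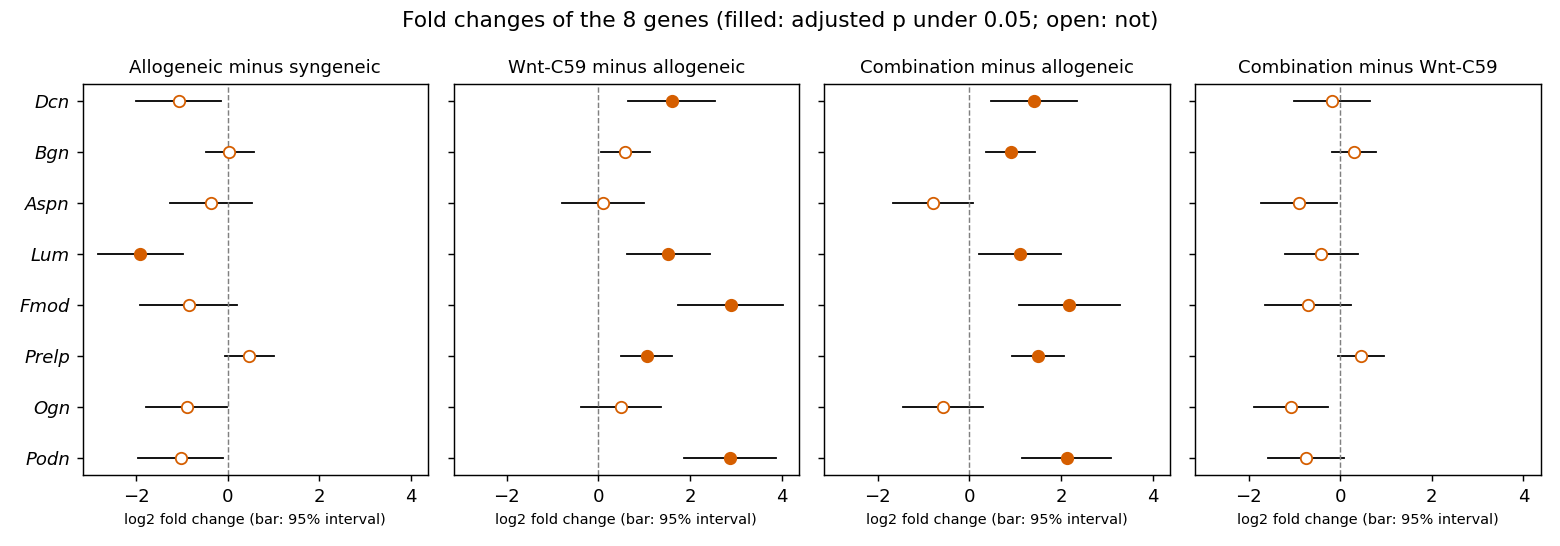
Log2 fold change (horizontal axis) of the 8 genes in 4 comparisons, with 95% intervals and filled points for genes with an adjusted p under 0.05. Under this TMM scaling Fmod and Podn have the largest rises against allogeneic skin (2.89 and 2.87 with Wnt-C59; with the GC trend removed Dcn is above both), Aspn and Ogn have intervals that span 0 in the first 3 comparisons except for Ogn in allogeneic against syngeneic skin (-1.77 to -0.01), and no point is filled in the comparison of both treatments.

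Decorin carries a chondroitin or dermatan sulfate chain, limits the sideways fusion of collagen fibrils and binds TGF-beta. Dcn had 962.0, 767.8, 529.5 and 973.2 CPM in combination libraries 2, 3, 4 and 5 and 389.9, 1702.3, 1049.2 and 544.3 CPM in Wnt-C59 libraries 1, 2, 4 and 5. It had 420.4, 225.2 and 267.9 CPM in allogeneic libraries, against 784.1, 412.5, 658.1 and 691.4 CPM in syngeneic libraries. All combination libraries lay above all allogeneic libraries, Wnt-C59 library 1 lay inside the allogeneic range, and the highest allogeneic library reached just above the lowest syngeneic one. The share of all tested genes whose groups lay apart in such ways was not counted, a limit that holds for the genes below too. Dcn rose by 1.41 log2 units with the combination (SE 0.44, adjusted p = 0.014) and by 1.60 with Wnt-C59 (SE 0.44, adjusted p = 0.0078) against allogeneic skin. Allogeneic against syngeneic skin gave a log2 fold change of -1.06 (95% interval -1.99 to -0.14, adjusted p = 0.077), which did not pass. Without allogeneic library 2 the combination fold change was 1.25 (adjusted p = 0.052).

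Biglycan, the nearest relative of decorin, carries chains of the same kind and, when released from the matrix, is known to activate the receptors TLR2 and TLR4. Bgn had 481.3, 291.3, 500.9 and 608.1 CPM in combination libraries and 343.0, 495.8, 361.6 and 320.1 CPM in Wnt-C59 libraries. It had 309.4, 176.3 and 272.4 CPM in allogeneic libraries, against 236.8, 211.0, 289.4 and 244.5 CPM in syngeneic libraries. The vehicle groups overlapped, the Wnt-C59 libraries all lay above the allogeneic ones, and combination library 3 lay inside the allogeneic range. Bgn rose by 0.90 log2 units with the combination (SE 0.25, adjusted p = 0.0075). With Wnt-C59 the log2 fold change was 0.59 (95% interval 0.06 to 1.12, adjusted p = 0.061), and 0.76 without allogeneic library 1 (adjusted p = 0.044). The value in allogeneic against syngeneic skin was 0.04 (95% interval -0.48 to 0.57, adjusted p = 0.92).

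Lumican carries keratan sulfate in some tissues, binds collagen fibrils at a site that fibromodulin also uses, and was the member that fell in allogeneic skin. Lum had 111.6, 95.8, 101.3 and 196.8 CPM in combination libraries and 86.6, 288.9, 157.2 and 138.3 CPM in Wnt-C59 libraries. It had 63.2, 77.4 and 34.6 CPM in allogeneic libraries, against 246.1, 122.0, 235.6 and 267.5 CPM in syngeneic libraries. Allogeneic libraries lay below every library of each other group, and the treated libraries spanned the gap up to the syngeneic range, with Wnt-C59 library 2 the highest of all. In allogeneic against syngeneic skin the log2 fold change of Lum was -1.90 (SE 0.43, adjusted p = 0.0046), a level 3.73-fold lower. Against allogeneic skin it rose by 1.11 with the combination (SE 0.42, adjusted p = 0.035) and by 1.52 with Wnt-C59 (SE 0.42, adjusted p = 0.0084). The combination call ended without combination library 5 (0.83, adjusted p = 0.10), without allogeneic library 1 (1.18, adjusted p = 0.071) and without allogeneic library 3 (0.86, adjusted p = 0.13).

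Fibromodulin binds collagen and, in mice, helps to direct the cross-linking enzyme lysyl oxidase to its sites on the fibril. Fmod had 58.6, 49.1, 58.5 and 57.6 CPM in combination libraries and 85.0, 85.9, 114.9 and 79.4 CPM in Wnt-C59 libraries. It had 2.00, 18.3 and 16.7 CPM in allogeneic libraries, against 21.4, 15.7, 32.0 and 19.9 CPM in syngeneic libraries. All treated libraries lay above all vehicle libraries, all Wnt-C59 libraries lay above all combination libraries, and allogeneic library 1 stood far below the other allogeneic libraries. Fmod rose by 2.18 log2 units with the combination (SE 0.51, adjusted p = 0.0029) and by 2.89 with Wnt-C59 (SE 0.53, adjusted p = 6.2e-04). Without allogeneic library 1 these were 1.68 (adjusted p = 2.0e-04) and 2.39 (adjusted p = 4.7e-05). Its value in allogeneic against syngeneic skin was -0.85 (95% interval -1.91 to 0.20, adjusted p = 0.21), and -0.35 without allogeneic library 1.

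PRELP, named for its proline- and arginine-rich end, binds heparan sulfate and links basement membranes to the collagen beneath. Prelp had 231.5, 275.1, 132.0 and 184.2 CPM in combination libraries and 144.1, 189.9, 151.1 and 116.9 CPM in Wnt-C59 libraries. It had 50.2, 74.7 and 92.6 CPM in allogeneic libraries, against 49.3, 49.1, 64.2 and 45.6 CPM in syngeneic libraries. All treated libraries lay above all vehicle libraries, and the vehicle groups overlapped. Prelp rose by 1.50 log2 units with the combination (SE 0.26, adjusted p = 2.7e-04) and by 1.05 with Wnt-C59 (SE 0.26, adjusted p = 0.0036). For allogeneic against syngeneic skin it was 0.48 (95% interval -0.06 to 1.01, adjusted p = 0.16), and it was the member with the largest positive value in that comparison.

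Podocan binds collagen and has been described in scarred kidney glomeruli of mice. Podn had 60.7, 34.9, 37.6 and 46.6 CPM in combination libraries and 42.3, 158.0, 67.9 and 32.6 CPM in Wnt-C59 libraries. It had 9.60, 8.62 and 12.6 CPM in allogeneic libraries, against 23.8, 16.6, 22.4 and 20.7 CPM in syngeneic libraries. The vehicle groups did not overlap, allogeneic libraries being the lower ones, and all treated libraries lay above both. Podn rose by 2.13 log2 units with the combination (SE 0.45, adjusted p = 0.0013) and by 2.87 with Wnt-C59 (SE 0.47, adjusted p = 2.4e-04). Wnt-C59 library 2 had the highest level, and without it the Wnt-C59 value was 2.21 (adjusted p = 9.2e-05). The allogeneic against syngeneic value was -1.02 (95% interval -1.95 to -0.09, adjusted p = 0.091), which did not pass.

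Fmod and Podn, the genes with the largest rises under TMM scaling (with the GC trend removed Dcn rose more), lie on different chromosomes, 1 and 4, and their promoters differ in base composition. The RefSeq windows of build GRCm38.p6, which is not the build of the counts (GRCm39), are shown over the 250 bases before the start, with motif matches on either strand in capitals.
Fmod, chr1:134037004-134037253, plus strand: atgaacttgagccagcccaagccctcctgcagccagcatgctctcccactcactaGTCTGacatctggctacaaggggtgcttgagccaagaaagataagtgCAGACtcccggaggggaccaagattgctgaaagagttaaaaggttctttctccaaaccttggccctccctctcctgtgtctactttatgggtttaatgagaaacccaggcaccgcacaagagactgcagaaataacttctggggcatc
Podn, chr4:108031955-108032204, minus strand: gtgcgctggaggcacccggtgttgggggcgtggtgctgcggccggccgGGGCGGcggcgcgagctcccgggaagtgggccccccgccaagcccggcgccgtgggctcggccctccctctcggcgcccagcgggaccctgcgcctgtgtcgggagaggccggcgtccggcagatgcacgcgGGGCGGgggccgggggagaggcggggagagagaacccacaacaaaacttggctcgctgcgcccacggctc
In Fmod the capitals mark the SMAD core CAGAC, which 42.2% of 32851 promoter windows of the same length hold, and in Podn they mark the GC box GGGCGG, held by 32.7% of windows. The Podn window has 78.0% GC and 32 CpG sites, and the Fmod window 51.2% GC and 2 CpG sites, against a median of 52.4% GC over all windows. Podn has a second listed start, with a window of 64.0% GC and 7 CpG sites that held none of the 8 motifs searched. A match is a description of these letters and not a binding site.

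Osteoglycin, also called mimecan, and asporin, which carries no sugar chain of the kind found on decorin and can bind TGF-beta, are encoded on chromosome 13 in the gene order Ecm2, Aspn, Omd, Ogn, all of them related genes. Ogn had 17.1, 6.59, 12.9 and 14.2 CPM in combination libraries and 19.8, 35.5, 16.8 and 34.9 CPM in Wnt-C59 libraries. It had 15.6, 27.8 and 13.5 CPM in allogeneic libraries, against 60.0, 26.2, 23.1 and 31.4 CPM in syngeneic libraries. Combination libraries lay below all syngeneic ones, and the Wnt-C59 and allogeneic libraries each overlapped both of these groups. Aspn had 15.9, 7.26, 25.2 and 24.4 CPM in combination libraries and 26.9, 33.5, 30.4 and 43.9 CPM in Wnt-C59 libraries. It had 36.4, 34.8 and 23.0 CPM in allogeneic libraries, against 71.9, 26.7, 25.1 and 38.2 CPM in syngeneic libraries. All combination libraries lay below all Wnt-C59 libraries, and the vehicle groups overlapped.

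Neither gene passed the test against allogeneic skin. Ogn had a log2 fold change of -0.58 with the combination (95% interval -1.44 to 0.29, adjusted p = 0.24) and 0.50 with Wnt-C59 (95% interval -0.38 to 1.37, adjusted p = 0.33). Aspn had -0.79 with the combination (95% interval -1.67 to 0.09, adjusted p = 0.12) and 0.10 with Wnt-C59 (95% interval -0.79 to 0.99, adjusted p = 0.87). Their values in allogeneic against syngeneic skin were -0.89 for Ogn (95% interval -1.77 to -0.01, adjusted p = 0.12) and -0.37 for Aspn (95% interval -1.26 to 0.53, adjusted p = 0.54). Combination libraries 4 and 5, which stood apart from 2 and 3 in hair follicle markers, held the higher Aspn levels of that group. Without them Aspn was -1.44 (adjusted p = 0.019) against allogeneic skin, in a fit that did not remove the GC trend.

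The promoters of both genes are poor in GC and are shown because Ogn and Aspn were the pair with the most similar profiles over the 15 libraries, with the GC trend not removed. The windows are from RefSeq, build GRCm38.p6, with capitals for motif matches on either strand.
Aspn, chr13:49544193-49544442, plus strand: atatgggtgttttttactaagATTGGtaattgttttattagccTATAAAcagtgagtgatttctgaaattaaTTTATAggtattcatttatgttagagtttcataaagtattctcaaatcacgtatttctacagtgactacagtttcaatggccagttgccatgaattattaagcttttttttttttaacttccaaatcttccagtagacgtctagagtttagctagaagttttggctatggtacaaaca
Ogn, chr13:49607765-49608014, plus strand: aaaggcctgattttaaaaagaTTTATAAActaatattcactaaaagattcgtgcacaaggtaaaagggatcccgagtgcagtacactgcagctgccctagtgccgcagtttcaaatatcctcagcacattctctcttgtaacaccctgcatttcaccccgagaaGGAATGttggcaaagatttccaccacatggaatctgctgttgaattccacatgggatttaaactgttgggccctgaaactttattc
The capitals in both genes mark the letters TATAAA of a common start signal, present on both strands in Aspn and in 2 overlapping matches on opposite strands in Ogn, and in 12.4% of all windows. Aspn also holds CCAAT, found in 33.8% of windows, and Ogn the TEAD factor core CATTCC, found in 12.6%. The Aspn window had 30.0% GC, with 1.47% of all windows lower, and the Ogn window 42.0% GC, with 15.9% lower. Windows were listed for 6 of the 8 genes. The other motifs searched were CTTTGA (the core of TCF and LEF sites, in 13.8% of windows and here in Bgn), TGAGTCA (the AP-1 site, 4.46%) and CACGTG (the E-box, 6.02%), both of the last-named in none of the 6 genes, which says only that these letters are not in these windows.

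**Figure D3:**
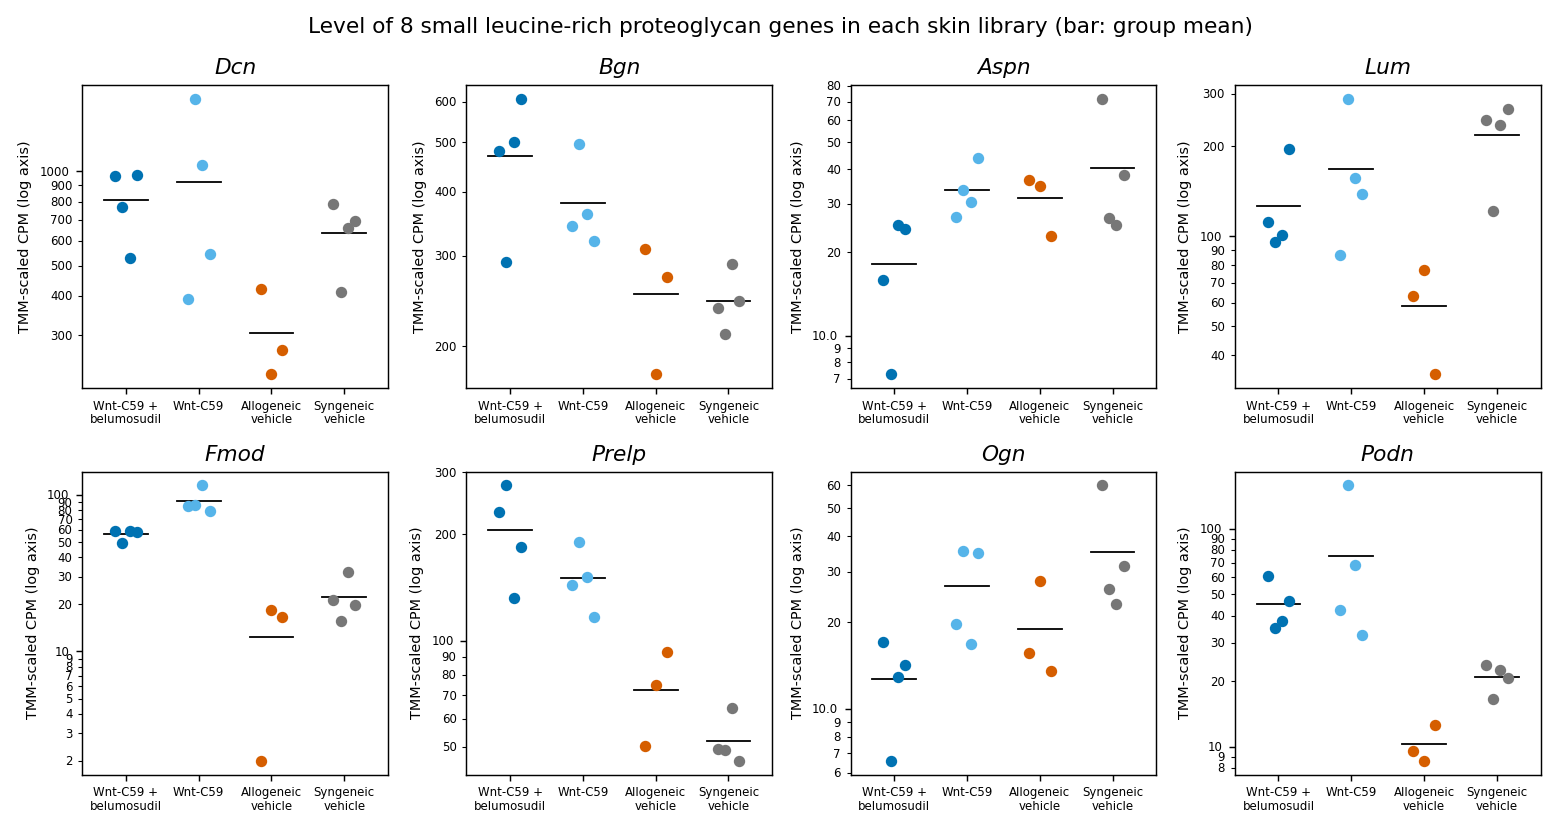
TMM-scaled CPM on a log axis for each of the 8 genes, with 1 point per library and a bar at the group mean, in the order combination, Wnt-C59, allogeneic vehicle, syngeneic vehicle. All treated points of Fmod, Prelp and Podn lie above all vehicle points, while the lowest points of Ogn and Aspn are in combination skin (6.59 and 7.26 CPM). The share of all tested genes with treated and vehicle points apart was not counted.

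Whether Ogn and Aspn were called against allogeneic skin depended on how GC content was handled. The longest transcripts of Ogn and Aspn had 36.3% and 34.3% GC, and those of Dcn and Lum 37.4% and 41.9%, against 51.2% for Bgn, 53.7% for Fmod, 53.8% for Prelp, 56.3% for Podn and a median of 49.7% over tested genes. With the GC trend of each library removed, all 8 genes rose with the combination against allogeneic skin, where a rise was called for 21.2% of all genes, and 7 rose with Wnt-C59 (all but Bgn), where it was called for 18.3%. Aspn then had 0.91 with the combination (adjusted p = 0.032) and 1.48 with Wnt-C59 (adjusted p = 0.0027), and Ogn had 0.95 (adjusted p = 0.039) and 1.70 (adjusted p = 0.0021), so that the combination values of both changed sign. Dcn then stood at 2.82 with the combination and 2.78 with Wnt-C59, above Fmod at 1.75 and 2.50 and Podn at 1.45 and 2.24. Lum stood at 1.98 and 2.27, Prelp at 1.04 and 0.63 (adjusted p = 0.0033 and 0.045), and Bgn at 0.66 and 0.37 (adjusted p = 0.047 and 0.26). The ranking of members by their rise was therefore not the same under both settings, whereas the rises of Dcn, Lum, Fmod, Prelp and Podn passed under both. Under this setting Ogn also fell in allogeneic against syngeneic skin (-1.04, adjusted p = 0.036) beside Lum, where a fall was called for 14.9% of all genes.

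**Figure D4:**
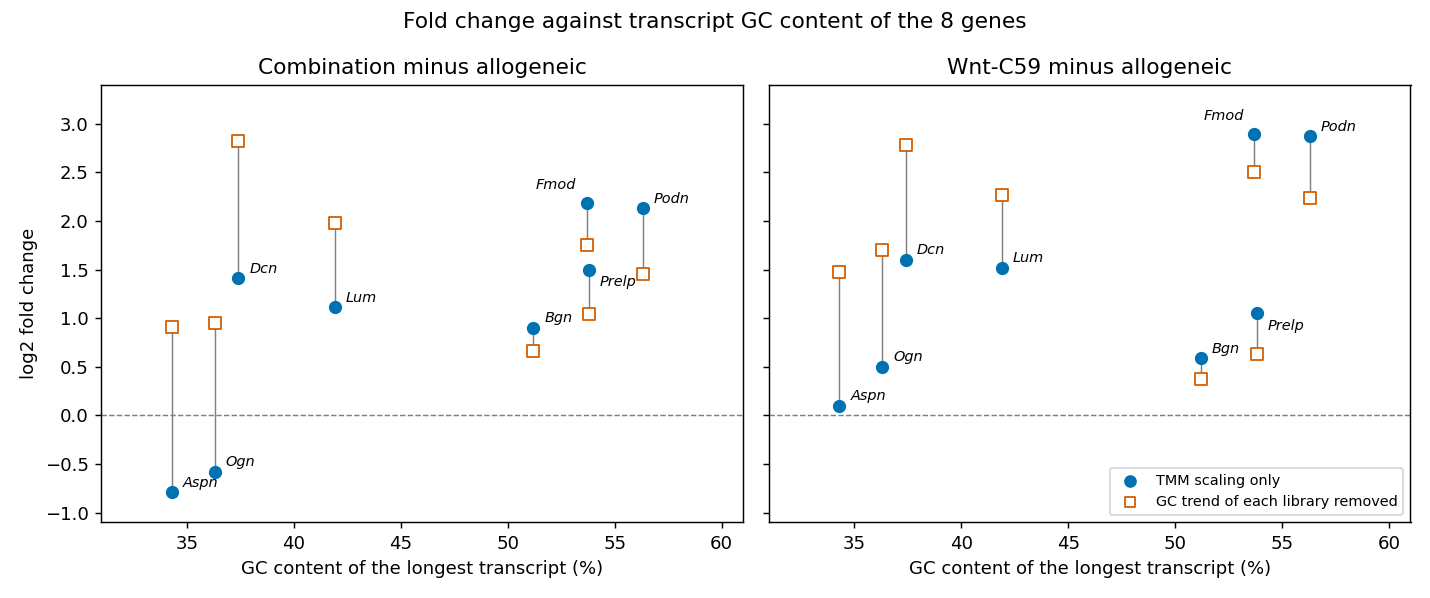
Log2 fold change against allogeneic vehicle skin (vertical axis) plotted by the GC content of the longest transcript (horizontal axis) for the 8 genes, with TMM scaling only (circles) and with the GC trend of each library removed (squares). The 4 GC-poorest transcripts move up when the trend is removed and the other 4 move down, and Aspn and Ogn cross 0 in the combination panel.

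No change in the 8 genes was called between the combination and Wnt-C59 alone. In combination against Wnt-C59 skin 0 of 8 passed by edgeR, where 0.231% of all genes were called, nor did any pass by limma-voom or by DESeq2, which called 1469 genes. By edgeR 2 of 8 (Ogn and Aspn) had an unadjusted p under 0.05, as did 20.9% of all genes. The median of the 8 log2 fold changes was -0.56, against -0.01 over all genes. Ogn had -1.07 (95% interval -1.88 to -0.26, adjusted p = 0.14) and Aspn -0.89 (95% interval -1.72 to -0.06, adjusted p = 0.21). Fmod, whose libraries did not overlap between the groups, had -0.71 (95% interval -1.65 to 0.24, adjusted p = 0.37). The intervals of the other members were -1.02 to 0.64 for Dcn, -1.21 to 0.39 for Lum, -0.18 to 0.79 for Bgn, -0.05 to 0.95 for Prelp and -1.57 to 0.09 for Podn, so changes of these sizes are not shown to be absent. Podn had -0.74, and -0.08 without Wnt-C59 library 2.

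Set against syngeneic skin, treated allogeneic skin was higher in 4 genes. Bgn, Fmod, Prelp and Podn rose with the combination (0.94, 1.33, 1.98 and 1.11 on the log2 scale, adjusted p = 0.0032, 0.023, 2.0e-05 and 0.028) and with Wnt-C59 (0.63, 2.04, 1.53 and 1.85, adjusted p = 0.031, 0.0023, 1.4e-04 and 0.0017). Of all genes 54.1% were called with the combination (26.9% as a rise) and 53.1% with Wnt-C59 (26.0% as a rise). Ogn (-1.47, adjusted p = 0.005) and Aspn (-1.15, adjusted p = 0.022) fell with the combination, where a fall was called for 27.2% of all genes. Lum, which had fallen in allogeneic skin, had -0.79 with the combination (95% interval -1.59 to 0.02) and -0.38 with Wnt-C59 (95% interval -1.18 to 0.43). With the GC trend removed, Dcn, Bgn and Prelp rose with the combination and none fell, where a rise was called for 22.5% and a fall for 22.2% of all genes, Ogn standing at -0.08 and Aspn at 0.40. With Wnt-C59 under that setting 5 genes rose (Dcn, Fmod, Prelp, Podn and Aspn), where a rise was called for 21.8% of all genes; Dcn (1.52, adjusted p = 0.012) and Aspn (0.97, adjusted p = 0.015) were gained, and Bgn (0.47, adjusted p = 0.11) was lost. Single libraries also decided several of these calls: Bgn with Wnt-C59 was not called without Wnt-C59 library 2 or without syngeneic library 1, 2 or 4 (0.48 to 0.65). With the combination, Fmod was not called without syngeneic library 1 or 2 (1.33 and 1.23), Podn without combination library 2 or syngeneic library 2 (0.93 and 1.05), and Aspn without combination library 2 or syngeneic library 1 (-1.09 and -0.69), while Lum was called without combination library 5 (-1.04).

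Markers of fibroblasts, the main source of these proteins in skin, were also higher in treated than in allogeneic skin. All 12 markers listed were tested and none was at 0 in all libraries of a group. Their summed level was 1065.4 to 2371.2 CPM in combination, 818.7 to 1776.5 CPM in Wnt-C59, 440.4 to 503.1 CPM in allogeneic and 568.2 to 1220.4 CPM in syngeneic skin. Of these 12, 8 rose with the combination and 7 with Wnt-C59 against allogeneic skin, where 27.1% and 24.6% of all genes rose. In allogeneic against syngeneic skin 3 of the 12 fell, where 15.1% of all genes did. Pdgfra, a receptor that marks dermal fibroblasts, had 0.16 with the combination and -0.06 with Wnt-C59, neither called, whereas Thy1, a surface protein of fibroblasts and T cells, rose by 1.94 and 1.11. With the mean log2 level of these markers as a covariate, none of the 8 proteoglycans was called against allogeneic skin with either treatment. Fmod then had 1.68 with the combination and 2.48 with Wnt-C59 (adjusted p = 0.25 and 0.054), and Podn 0.61 and 1.56. Prelp had 0.64 and 0.39, and Bgn 0.58 and 0.33. Dcn had -0.62 and -0.14, and Lum -0.30 and 0.30, so the members differed in how far their values moved. Calls over all genes were then 1919 with the combination and 2819 with Wnt-C59, against 10168 and 9481 without the covariate. Adipocyte markers summed to 2491.0 to 3392.0 CPM in combination and 1018.6 to 3428.5 CPM in Wnt-C59 skin, against 343.3 to 898.2 CPM in allogeneic skin, and with their score as a covariate 0 of the 8 were called with the combination and 1 (Podn) with Wnt-C59. Some values were then near or above those without that score. Dcn had 2.16 with the combination and 2.24 with Wnt-C59 (adjusted p = 0.10 and 0.062). Podn had 2.01 and 2.77, Prelp 1.37 and 0.93 and Bgn 0.87 and 0.57. Fmod had 1.17 and 2.12, and Lum 0.58 and 1.07, all below their values without it. Calls over all genes were 2997 with the combination and 3007 with Wnt-C59. Tendon and cartilage markers, from tissues also rich in these proteins, summed to 129.2 to 299.7 CPM in combination, 141.6 to 327.3 CPM in Wnt-C59, 40.6 to 80.9 CPM in allogeneic and 158.6 to 220.4 CPM in syngeneic skin, and their part in the result was not tested. The GC trend was not removed from the marker levels and calls or from the fits with marker scores.

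Some libraries stood apart within the combination group. Hair follicle markers had a score (mean log2 CPM) of 8.94 and 7.54 in combination libraries 4 and 5 and of 0.85 and 0.59 in libraries 2 and 3. The score was 0.85 to 1.12 in Wnt-C59, -0.75 to 0.43 in allogeneic and 7.92 to 8.64 in syngeneic skin. Skeletal muscle markers had 0.43 in combination library 5 and 7.02 to 11.31 in the other libraries. Without libraries 4 and 5, a setting chosen after seeing the data, Dcn, Fmod, Prelp and Podn rose with the combination against allogeneic skin and Aspn fell. Lum (0.84, adjusted p = 0.15) and Bgn (0.62, adjusted p = 0.088) were then not called. The shares of all genes that rose or fell under this setting are not given here, so these calls have no background beside them. The GC trend was not removed in that fit, and with all libraries and the trend removed Aspn rose by 0.91.

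Over the 15 libraries the 8 genes differed in profile. The measure of likeness was the root mean square difference between log2 CPM profiles centred on their means, given as a description with no test. Ogn and Aspn had the smallest difference of all pairs (0.39), followed by Dcn with Lum (0.57), Dcn with Bgn (0.59) and Dcn with Podn (0.60), and Fmod and Aspn were farthest apart (1.72). The GC trend was not removed from these profiles. Ogn and Aspn had the GC-poorest transcripts (36.3% and 34.3%, against 53.7% for Fmod), and the part of GC content in the likeness was not tested. Lum and Dcn are neighbours on chromosome 10, and Prelp and Fmod on chromosome 1, with a difference of 1.00, while Bgn lies on X and Podn on 4. Outside the 8, the genes most like Lum included Negr1 (0.35) and the collagen chain gene Col1a2 (0.41), and those most like Podn were Ltbp4 (0.38), which binds latent TGF-beta, Osr2 (0.39) and Sema3b (0.42). Ogn was most like Cep112 (0.31), its neighbour Omd (0.39) and Gpm6a (0.40), and Fmod like Adamts8 (0.41) and Susd2 (0.41). Dcn was most like Shc2 (0.27), Bgn like Gatd1 (0.25), Prelp like Nagpa (0.21) and Aspn like Zfp963 (0.27). The median difference over all tested genes ran from 0.78 for Bgn to 1.54 for Fmod.

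Of the other genes of the family, 9 of 10 were tested. Calls in this and the following lists stand beside a rise or fall of 14.6% or 15.1% of all tested genes in allogeneic against syngeneic skin, 27.1% or 27.4% with the combination and 24.6% or 26.2% with Wnt-C59 against allogeneic skin. With the GC trend removed, 21.2% rose with the combination and 18.3% with Wnt-C59, and 14.9% fell in allogeneic against syngeneic skin. The other shares of these comparisons under that setting are not given here. Medians of this and the following lists stand beside medians over all tested genes of -0.07 in allogeneic against syngeneic skin, 0.01 with the combination and 0.00 with Wnt-C59 against allogeneic skin. Allogeneic against syngeneic skin had 1 rise and 3 falls (median -0.84). Against allogeneic skin 2 rose and 2 fell with the combination (median 0.48), and 4 rose and 1 fell with Wnt-C59 (median 0.31), so the combination counts were near the share over all genes. Podnl1, a close relative of podocan, rose by 2.65 in allogeneic skin (3.59 ± 1.95 CPM in 3 allogeneic libraries, against 0.567 ± 0.108 CPM in 4 syngeneic libraries) and fell by 2.06 with the combination and by 1.89 with Wnt-C59. Ecm2, next to Aspn, fell by 1.45 in allogeneic skin and rose by 1.59 with Wnt-C59. With the GC trend removed Ecm2 also rose with the combination (1.67, adjusted p = 0.0049). Chadl rose by 1.33 with the combination and by 1.73 with Wnt-C59, and the combination value (0.67 with the GC trend removed, adjusted p = 0.086) did not pass under that setting.

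Most of the listed collagens that these proteins bind fell in allogeneic skin and several rose with treatment. Of 12 fibril collagens and partners, 9 fell and none rose in allogeneic against syngeneic skin (median -1.02), 8 rose and 1 fell with the combination (median 1.02), and 5 rose and 1 fell with Wnt-C59 against allogeneic skin (median 0.58). Col1a1, a chain of type I collagen, averaged 391.6 ± 127.4 CPM in allogeneic skin (SD, n = 3), against 2115.0 ± 1177.8 CPM in syngeneic skin (SD, n = 4), and fell by 2.43 log2 units (adjusted p = 0.0013). It rose by 1.96 with the combination (adjusted p = 0.0021) and by 1.93 with Wnt-C59 (adjusted p = 0.0026), or by 1.12 and 1.11 with the GC trend removed (adjusted p = 0.045 and 0.049). Col6a1 and Col6a2, chains of the beaded type VI collagen that binds decorin and biglycan, rose by 1.91 and 2.01 with the combination and by 1.40 and 1.41 with Wnt-C59, or by 1.21 and 1.43 and by 0.76 and 0.88 with the GC trend removed. Col12a1 was the gene that fell, by 1.02 with the combination (-0.95 and adjusted p = 0.052 with the GC trend removed) and by 1.68 with Wnt-C59. With the GC trend removed, 6 fell in allogeneic skin, 4 rose with the combination (Col1a2 no longer among them) and 4 rose and 2 fell with Wnt-C59.

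Among 17 genes of collagen fibril assembly, 1 rose and 7 fell in allogeneic against syngeneic skin (median -0.60), 12 rose and 1 fell with the combination (median 1.44), and 11 rose and 1 fell with Wnt-C59 (median 1.29). The single riser in allogeneic skin and single faller with treatment was Lox, lysyl oxidase, which cross-links collagen: it rose by 1.69 in allogeneic skin and fell by 2.42 with the combination and by 2.94 with Wnt-C59. Its relative Loxl1 rose by 2.45 with the combination and by 1.62 with Wnt-C59, or by 1.47 and 0.68 with the GC trend removed. Pcolce2, which speeds the trimming of procollagen, fell by 2.66 in allogeneic skin and rose by 3.54 with the combination and 3.96 with Wnt-C59. Dpt, dermatopontin, which binds decorin, rose by 2.08 and 1.71 with the treatments, and it also stands in the fibroblast list. With the GC trend removed 9 rose with each treatment, and Lox was no longer the only gene to go the other way. Fn1 then also rose in allogeneic skin (0.80, adjusted p = 0.043), and Loxl2 also fell with Wnt-C59 (-0.57, adjusted p = 0.042).

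Genes that build the sugar chains moved in both directions. Of 21 genes of chondroitin and dermatan sulfate synthesis, 1 rose and 3 fell in allogeneic against syngeneic skin (median -0.22), 7 rose and 8 fell with the combination (median -0.10), and 8 rose and 8 fell with Wnt-C59 (median 0.12, and -0.10 with the GC trend removed). Chst14, the dermatan 4-O-sulfotransferase, rose by 1.32 with the combination and by 1.39 with Wnt-C59 (0.63 and 0.77 with the GC trend removed), whereas Dse, the epimerase that turns chondroitin into dermatan, fell by 0.95 and by 1.20. Xylt1, which starts the chain, rose by 0.76 in allogeneic skin and fell by 1.21 and 1.63 with the treatments. Of 6 tested genes of keratan sulfate synthesis, 3 rose and 1 fell in allogeneic skin, 2 rose and 2 fell with the combination, and 1 rose and 2 fell with Wnt-C59. Chst1, the keratan sulfate sulfotransferase, rose by 2.06 with the combination and by 2.66 with Wnt-C59, or by 1.34 and 2.02 with the GC trend removed. Tpst1, which sulfates the tyrosines found near the start of fibromodulin, rose by 1.25 with each treatment, and the rises of Tpst2 (1.07 and 0.75) did not pass with the GC trend removed (0.17 and -0.09).

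Ligands, receptors and proteases that act on these proteins had medians of the opposite sign to theirs in these comparisons. Of 17 ligands and receptors, 6 rose and 3 fell in allogeneic against syngeneic skin (median 0.35), 3 rose and 9 fell with the combination (median -0.75), and 2 rose and 8 fell with Wnt-C59 (median -0.82). The biglycan receptors Tlr2 and Tlr4 rose by 3.58 and 2.10 in allogeneic skin. They fell by 1.64 and 2.35 with the combination and by 1.66 and 2.67 with Wnt-C59. With the GC trend removed they had -1.68 and -1.17 with the combination and -1.70 and -1.75 with Wnt-C59. Tgfb1, the gene of TGF-beta 1, rose by 1.15 in allogeneic skin and by 0.66 with the combination, a value that did not pass with the GC trend removed (0.30, adjusted p = 0.16). Of 11 tested proteases, 4 rose and none fell in allogeneic skin (median 0.64), 1 rose and 3 fell with the combination (median -0.09), and 1 rose and 6 fell with Wnt-C59 (median -0.95), with no rise under either treatment when the GC trend was removed. Ctss, cathepsin S, averaged 228.3 ± 78.9 CPM in combination, 148.1 ± 63.8 CPM in Wnt-C59 (SD, n = 4 each), 1019.5 ± 174.1 CPM in allogeneic (SD, n = 3) and 57.0 ± 14.4 CPM in syngeneic skin (SD, n = 4). Markers of macrophages, cells in which cathepsin S and the matrix protease Mmp12 are abundant, rose in allogeneic skin (10 of 10). Of these markers 6 fell with the combination and 10 with Wnt-C59, with the GC trend not removed. The part of these cells in the protease, Tlr2 and Tlr4 values was not tested. In combination against Wnt-C59 skin no gene of the lists of collagens, assembly, chain synthesis, ligands and receptors or proteases was called by edgeR.

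**Figure D5:**
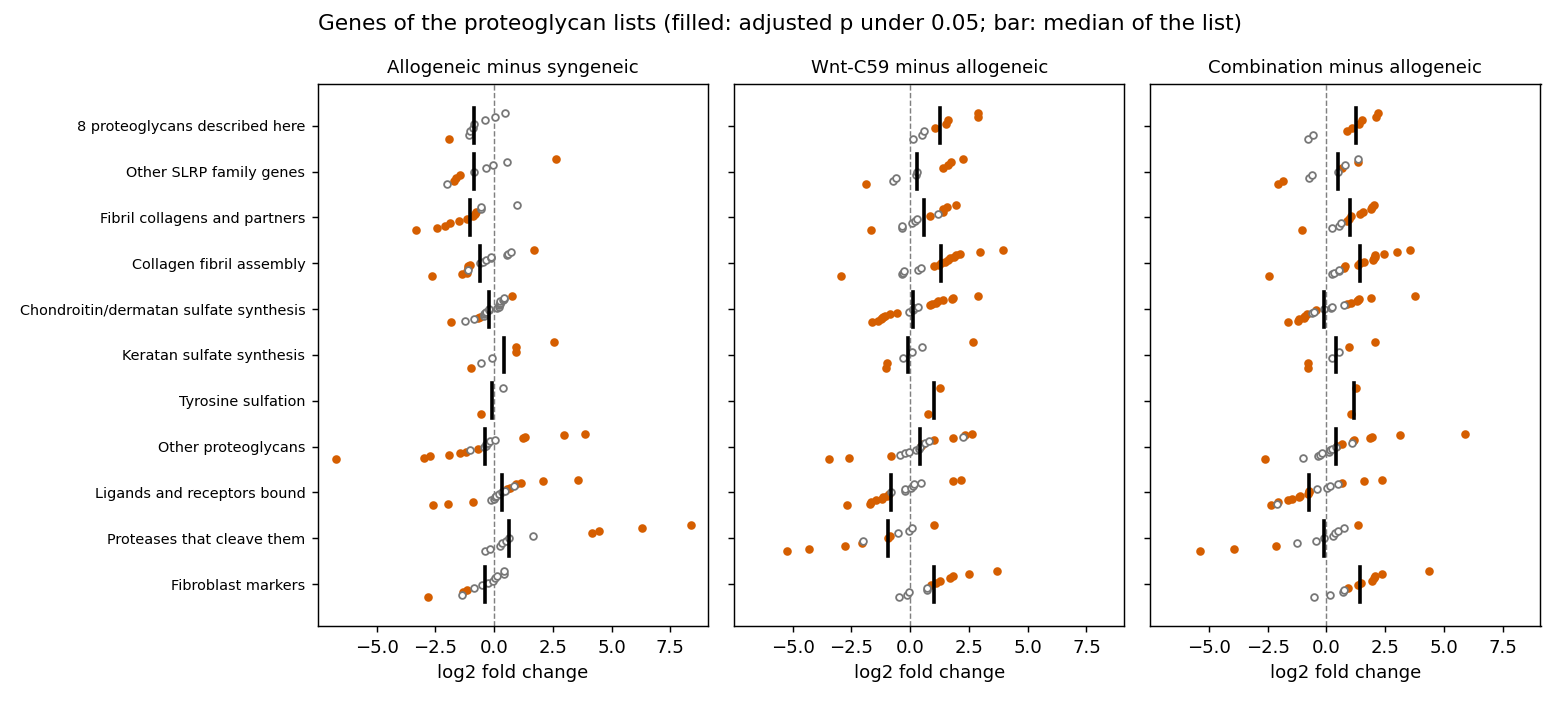
Log2 fold changes (horizontal axis) of the tested genes of 11 lists in 3 comparisons, with filled points for an adjusted p under 0.05 and a bar at each list's median. The bar of the 8 proteoglycans stands at -0.87 in allogeneic against syngeneic skin, 1.29 with Wnt-C59 and 1.26 with the combination against allogeneic skin, and that of the ligands and receptors has the opposite sign in each panel (0.35, -0.82 and -0.75).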

How the data were processed

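The 15 libraries measure skin RNA. What the authors deposited are estimated counts, unscaled and with fractions, per Ensembl gene and library. Per the submitters' processing notes the authors used FastQC, Trim Galore, HISAT2 and featureCounts with build GRCm39. Which of these wrote the table, and the strand setting, are not given in the sources used here, so reads shared with overlapping or antisense genes cannot be told apart. Symbols of 51276 genes (91.5%), lengths and GC content came from GENCODE M21 (build GRCm38), and promoters from RefSeq.

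Counts were rounded and tested with edgeR 4.0.16 (R 4.3.3): TMM scaling, filterByExpr, 1 quasi-likelihood fit over all 15 libraries with group as the only term, and Benjamini-Hochberg adjustment over 18651 genes within each comparison, with a call at an adjusted p under 0.05. The design had assumed whole counts. CPM values are TMM-scaled, and log2 CPM uses a prior count of 2. Fold changes are on the log2 scale unless called a fold, and intervals are 95% intervals. A GC trend was removed by a smooth curve per library, for the 97.7% of tested genes with a GC value. Other fits used DESeq2 1.42.0, limma-voom (limma 3.58.1), other size factors, no filter, only the groups compared, left-out libraries and scores of cell type markers. The steps were tested on simulated counts. All 8 genes are named in every comparison, and from each list up to 4 called genes in order of adjusted p were eligible to be named, of which the text gives part. A gene so named in 1 comparison may be given in the others too. The members and lists were chosen with earlier results of these data known.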

Additional observations from a re-analysis of the deposited data

Results flagged for a closer look

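In combination library 5, Lum stood at 196.8 CPM, far above the next library of its group at 111.6 CPM, with the gap making up a share of 0.844 of the group's range. In combination library 3, Fmod stood at 49.1 CPM, below the other 3 libraries of its group, the nearest at 57.6 CPM (share 0.896). These are 2 of 24 groups of 4 libraries examined, where chance alone flags about 1 in 20. The whole range of Fmod in combination skin was narrow (49.1 to 58.6 CPM), so the second value is a small departure. Library 5 was also the one with the skeletal muscle score of 0.43, and the part of that difference in its Lum level was not tested.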

How the results depend on the processing

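The number of the 8 genes called was 1 in allogeneic against syngeneic skin, and 2 by DESeq2, 3 with only the groups compared, 2 with the GC trend removed, 0 with the adipocyte score and 2 with the fibroblast score as a covariate. It was 6 for the combination and 5 for Wnt-C59 against allogeneic skin. These counts became 0 and 1 with the adipocyte score and 0 and 0 with the fibroblast score. Fold changes moved by different amounts. With the adipocyte score Dcn had 2.16 and 2.24, and Lum 0.58 and 1.07. With the fibroblast score Fmod had 1.68 and 2.48, and Dcn -0.62 and -0.14. Against syngeneic skin the combination count of 6 became 3 with the GC trend removed, 3 with the adipocyte and 2 with the fibroblast score. Leaving out 1 library gave 1 to 1 calls (allogeneic against syngeneic), 5 to 6 (combination) and 5 to 6 (Wnt-C59) against allogeneic, 4 to 7 and 3 to 4 against syngeneic, and 0 to 0 between treatments.

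Signs turned in these cases. In allogeneic against syngeneic skin Bgn was -0.01 with no filter and -0.13 without allogeneic library 1 (-0.13 to 0.28 over left-out libraries), and Aspn 0.09 without syngeneic library 1 (-0.54 to 0.09). With the combination against allogeneic skin Dcn was -0.62 and Lum -0.30 with the fibroblast score, and Ogn 0.95 and Aspn 0.91 with the GC trend removed. With Wnt-C59 Dcn was -0.14 (fibroblast score), Ogn -0.45 and Aspn -0.10 (adipocyte score), and Aspn -0.06 without Wnt-C59 library 5 and -0.10 without allogeneic library 3 (-0.10 to 0.22). Between treatments Dcn was 0.29 without Wnt-C59 library 2 (-0.44 to 0.29) and 0.04 with the GC trend removed. Against syngeneic skin the combination gave Dcn -0.82 (fibroblast score) and Aspn 0.40 (GC trend removed). Wnt-C59 gave Dcn -0.35 (fibroblast score), Lum 0.23, Ogn 0.66 and Aspn 0.97 (GC trend removed), and Ogn 0.01 (-0.56 to 0.01) and Aspn 0.18 (-0.44 to 0.18) without syngeneic library 1. The cause was not tested. Other size factors moved no median of all genes by over 0.1, and with plain totals all 32 group levels moved by less than 1 SD.

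Same-numbered vehicle libraries did not deviate together (r = -0.059, -0.095 and -0.028). No label says whether the numbers pair them, and a low r cannot settle it. With the replicate number as a block, 2 of the 8 genes were called in allogeneic against syngeneic skin (Lum and Podn), and calls over all genes went to 2869, against 5556. No paired analysis was possible for the other comparisons because the treated columns carry no title numbers.

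Depth limits the genes of lowest level: Podnl1, Chadl and Nyx stood at a few CPM or less. No promoter window was listed for Dcn and Lum. Calls over all genes went to 2218 (of 5556) in allogeneic against syngeneic skin and to 2997 (of 10168, combination) and 3007 (of 9481, Wnt-C59) against allogeneic skin with the adipocyte score. Combination against syngeneic calls went to 4506 (of 10081) with the fibroblast score. Combination against Wnt-C59 calls, 43, became 1469 by DESeq2, 18 with only the groups compared, 139 with the adipocyte, 9 with the muscle and 76 with the fibroblast score, and 380 without combination libraries 4 and 5. They were 1 and 17 without combination library 3 or 2, and 3, 3, 12 and 5 without Wnt-C59 library 1, 2, 4 or 5.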

Other observations

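Other proteoglycans of the matrix and the cell surface were not described above. Of 18 tested, 4 rose and 7 fell in allogeneic against syngeneic skin (median log2 fold change -0.40), 8 rose and 1 fell with the combination (median 0.43), and 6 rose and 3 fell with Wnt-C59 against allogeneic skin (median 0.43). With the GC trend removed these were 9 and 3 with the combination and 5 and 5 with Wnt-C59, where 21.2% and 18.3% of all tested genes were called as a rise. The shares called as a fall under that setting are not given here. Cspg4, a transmembrane proteoglycan of pericytes and of other progenitor cells, averaged 82.9 ± 4.68 CPM in combination, 76.1 ± 5.32 CPM in Wnt-C59 (SD, n = 4 each), 21.5 ± 5.25 CPM in allogeneic (SD, n = 3) and 81.0 ± 6.13 CPM in syngeneic skin (SD, n = 4). It fell by 1.91 in allogeneic against syngeneic skin (adjusted p = 2.8e-06) and rose by 1.94 and 1.82 with the treatments (adjusted p = 1.7e-06 and 2.4e-06), or 1.10 and 1.03 with the GC trend removed. Gpc3, a membrane-anchored heparan sulfate proteoglycan, fell by 2.97 in allogeneic skin and rose by 3.13 with the combination and 2.63 with Wnt-C59. Srgn, the proteoglycan of immune cell granules, ran the other way, rising by 3.87 in allogeneic skin and falling by 2.63 and 3.45 with the treatments. None of the 18 was called in combination against Wnt-C59 skin by edgeR. Of the 18, 4 had an unadjusted p under 0.05, near the 20.9% of all tested genes that did.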
